A study of Homo sapiens with 4 samples.

Results

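The enzymes of glycolysis and of the citric acid cycle, with the kinases that regulate the entry and the exit of glycolysis, were examined in MDA-MB-231 Fluc cells. MDA-MB-231 is an established human line of triple-negative breast cancer cells, and the Fluc derivative carries an inserted luciferase gene. The 42 members were taken from the deposited table by gene symbol from a list of pathway enzymes, and all 42 were among its 13957 genes. Cells had been exposed to 50 μM cordycepin (3′ deoxyadenosine) in 2 samples, or to the vehicle DMSO in 2 samples, for 2 h in both cases, and total RNA was sequenced after depletion of ribosomal RNA.

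The labels do not say whether the samples of a group came from separate cultures. The level of a gene in the deposited table is the authors' mean over cordycepin and DMSO libraries together, as log2 CPM (CPM, counts scaled to a common library total). The remaining columns hold the authors' own comparison of the treatments and were not used here. The values below are therefore levels of mRNA in cells of both treatments pooled. They carry no SD and no depth per library, they give no effect of cordycepin, and no test between samples was made. In bulk RNA, fewer cells and less RNA per cell cannot be told apart.

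Glycolysis splits glucose into pyruvate in the cytosol. Lactate dehydrogenase can then turn pyruvate into lactate, or the pyruvate dehydrogenase complex can turn it into acetyl-CoA for the citric acid cycle in mitochondria. Hexokinases trap glucose at the entry, PFKFB enzymes set the level of fructose 2,6-bisphosphate, an activator of phosphofructokinase, and PDK kinases switch off pyruvate dehydrogenase. Tumour cells commonly make lactate even when oxygen is present, which is known as the Warburg effect.

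By median, the mRNAs of glycolytic enzymes had higher levels than those of the genes that regulate the pathway, although single genes overlapped. To compare genes of different length, each level was divided by the length of the canonical GENCODE transcript, giving log2 CPM per kb. Among the members, the 15 glycolytic enzymes had a median of 7.24 log2 CPM per kb and the 4 pyruvate dehydrogenase subunits 5.60. The 15 citric acid cycle enzymes, a group that includes the cytosolic MDH1, ACO1 and IDH1, had 5.29. The 8 regulators (hexokinases, PFKFB and PDK genes) had 2.80. The median over the 13922 genes with a length was 3.04 log2 CPM per kb, so the regulators had a median below that of all genes and the other groups had medians above it. Without scaling for length the regulators turned to the other side, with a median of 4.95 log2 CPM against 4.58 for all genes. Of the 34 core enzymes, 33 lay above the median of all genes and 28 above the upper quartile of 4.56. Of the 8 regulators, 4 lay above that median and 1 (HK1) above the upper quartile. The median of the regulators differed from that of the core enzymes (5.70) by -2.90 on this log2 scale. Genes are not replicates, and this difference is a description of the table.

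**Figure D1:**
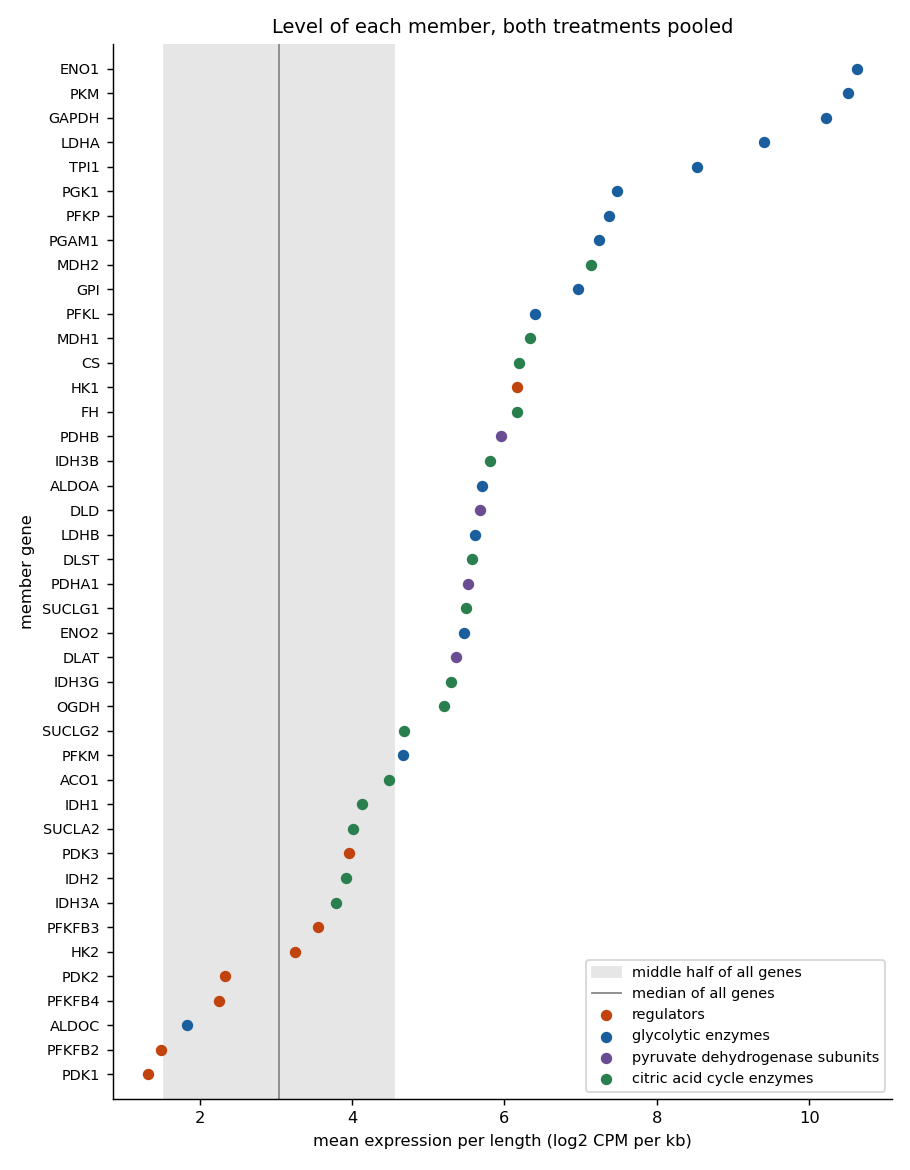
Mean expression of the 42 members in log2 CPM per kb on the horizontal axis, with both treatments pooled, 1 point per gene coloured by group. The grey band spans the quartiles of all genes, from 1.53 to 4.56, and ENO1, PKM, GAPDH and LDHA have the highest levels, from 9.41 to 10.63, while 7 of the 8 regulators lie within or below the band.

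Within glycolysis, 4 genes stood above the rest. ENO1 (enolase, chromosome 1, 8861000 to 8879190, GRCh38) had 10.63 log2 CPM per kb and PKM (pyruvate kinase, chromosome 15, 72199029 to 72231822) had 10.51. GAPDH (glyceraldehyde-3-phosphate dehydrogenase, chromosome 12, 6534512 to 6538374) had 10.22, and LDHA (lactate dehydrogenase A, chromosome 11, 18394560 to 18408425) had 9.41. By log2 CPM without scaling for length, PKM was the 13th of the 13957 genes, ENO1 the 19th, GAPDH the 37th and LDHA the 38th. Converted to CPM, these 4 genes summed to 9241 CPM, which was 61.2% of the sum over the 42 members and 0.919% of the sum over the table. The 42 members together made up 1.50% of the table, of which 1.23% came from the 15 glycolytic enzymes, 0.163% from the citric acid cycle enzymes and 0.0479% from the regulators. GAPDH was also the default reference mRNA in RT-qPCR of the study.

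The next levels belonged to other steps of the lower and upper pathway. Triosephosphate isomerase (TPI1) had 8.52 log2 CPM per kb, phosphoglycerate kinase (PGK1) 7.48, phosphofructokinase P (PFKP) 7.37, phosphoglycerate mutase (PGAM1) 7.24 and glucose-6-phosphate isomerase (GPI) 6.97. GPI was above 95.3% of the genes with a length, and TPI1 above 98.7%. The lowest glycolytic enzyme was ALDOC, an aldolase best known from brain, with 1.84 log2 CPM per kb and above 29.4% of genes.

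Levels of the pyruvate dehydrogenase subunits and of the citric acid cycle enzymes were more even. The 4 subunits of pyruvate dehydrogenase among the members ranged from 5.37 log2 CPM per kb for DLAT to 5.96 for PDHB. DLAT encodes the acetyltransferase subunit and PDHB encodes part of the decarboxylase. PDHX, a further subunit gene that is not a member, was lower, at 4.05 log2 CPM per kb. DLD, which encodes the shared dihydrolipoamide dehydrogenase, had 5.68 and PDHA1, which encodes the subunit that PDK kinases phosphorylate, had 5.52. Among the citric acid cycle enzymes as grouped here, the highest level was that of MDH2 (mitochondrial malate dehydrogenase), at 7.14 log2 CPM per kb. It was followed by MDH1 (cytosolic malate dehydrogenase) at 6.33, CS (citrate synthase) at 6.19 and FH (fumarase) at 6.17. The subunits of 2-oxoglutarate dehydrogenase, OGDH and DLST, had 5.21 and 5.58. Among the succinyl-CoA ligase genes, the shared alpha subunit SUCLG1 had 5.50, the GTP-linked beta subunit SUCLG2 had 4.68 and the ATP-linked beta subunit SUCLA2 had 4.01. ACO1, the cytosolic aconitase that also acts as an iron-responsive RNA-binding protein, had 4.48. With the canonical length, the lowest level among the citric acid cycle enzymes was that of IDH3A, at 3.78 log2 CPM per kb, still above 63.2% of genes. IDH3A is the catalytic subunit of the NAD-linked isocitrate dehydrogenase. This place depends on the length, as SUCLA2 was lower than IDH3A with the deposited gene length (1.94 against 3.04). The same held with the coding length (4.61 against 5.68) and without scaling (5.09 against 5.81 log2 CPM).

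The regulators spread over a wide range. HK1, the hexokinase found in most tissues, was the exception among them, with 6.17 log2 CPM per kb, next to CS and FH. HK2, the hexokinase often induced in tumours, had 3.26. PFKFB3, the isoenzyme with the highest kinase activity of its family, had 3.56, PFKFB4 had 2.26 and PFKFB2 had 1.49. The PDK kinases had 3.95 for PDK3, 2.34 for PDK2 and 1.32 for PDK1. These 3 values depend strongly on the length used, since the canonical transcript of PDK1 has 14072 bases and that of PDK3 has 1741. With the canonical length, 6 regulators were below the lowest citric acid cycle enzyme, and 7 were below every glycolytic enzyme except ALDOC. Both counts depend on the length. Without scaling, PDK1 (5.14), PFKFB3 (5.72) and HK2 (5.75) were above SUCLA2 (5.09 log2 CPM), the lowest citric acid cycle enzyme there, whereas PDK3 (4.75) was below it. With the coding length, PFKFB3 (5.08) was above PFKM (5.07 log2 CPM per kb).

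**Figure D2:**
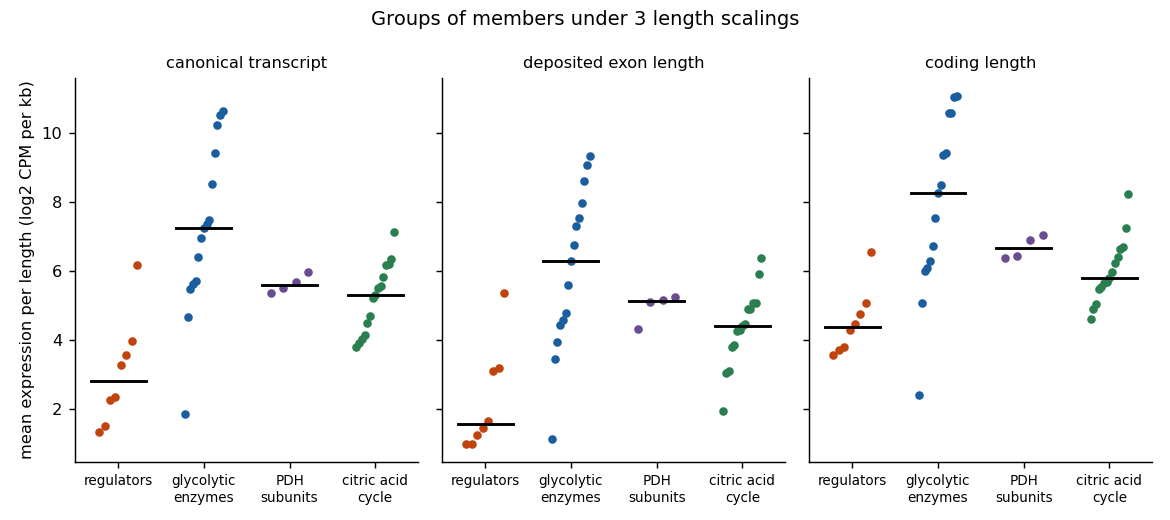
Levels of the members in log2 CPM per kb on the vertical axis, by group on the horizontal axis, after division by the canonical transcript length, the deposited gene length or the coding length. Points are genes and black lines are medians, and the regulators have the lowest median and the glycolytic enzymes the highest in each of the 3 panels.

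The order of the group medians was the same with the 3 lengths and without scaling, where they were 8.77, 7.29, 6.44 and 4.95 log2 CPM. With the deposited gene length, which equals the union of all annotated exons for 29 of the 42 members, the medians were 6.29 for glycolytic enzymes, 5.12 for pyruvate dehydrogenase subunits, 4.39 for citric acid cycle enzymes and 1.55 for regulators, in log2 CPM per kb. With the coding length they were 8.27, 6.67, 5.79 and 4.38. The same scaling gave 2.43 and 4.38 log2 CPM per kb as medians of all genes, so with the coding length the regulators lay at the middle of all genes. The lead of glycolytic over citric acid cycle enzymes was 1.95 on the log2 scale, and 0.76 without the 11 members that have a pseudogene in the table.

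For most steps with several isoenzymes, 1 gene made up most of the mRNA. Shares were taken of the CPM per kb summed over the members in a family. The hexokinase gene HKDC1 (1.18 log2 CPM per kb) and the enolase gene ENO3 (2.02) are not members and were left out. ENO1 took 97.3% and ENO2, the neuronal enolase, 2.72%. ALDOA took 93.6% of the aldolases, LDHA 93.3% of the lactate dehydrogenases and HK1 88.3% of the hexokinases. The phosphofructokinases were more mixed, with 60.1% for PFKP, 30.7% for PFKL and 9.20% for PFKM. PFKFB3 took 60.7% of its family, PFKFB4 24.7% and PFKFB2 14.6%. MDH2 took 63.6% of the malate dehydrogenases and SUCLG2 61.4% of the beta subunits of succinyl-CoA ligase. The leading gene was the same with the other lengths for these families. Changing the length cannot show reads lost or gained through overlapping genes, which concern ALDOA and LDHB as described below. ENO1 stayed above ENO2 by 4.51 on the log2 scale with the deposited length and by 4.80 with the coding length, and LDHA stayed above LDHB by 3.56 and 4.59. The lead did change for PDK kinases and for the NADP-linked isocitrate dehydrogenases. PDK3 took 67.2% of the PDK kinases with the canonical length, PDK2 took 41.6% with the deposited length and PDK1 took 42.7% with the coding length. IDH1 (cytosolic) took 53.6% and IDH2 (mitochondrial) 46.4% with the canonical length, whereas IDH2 took 62.7% with the deposited length.

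**Figure D3:**
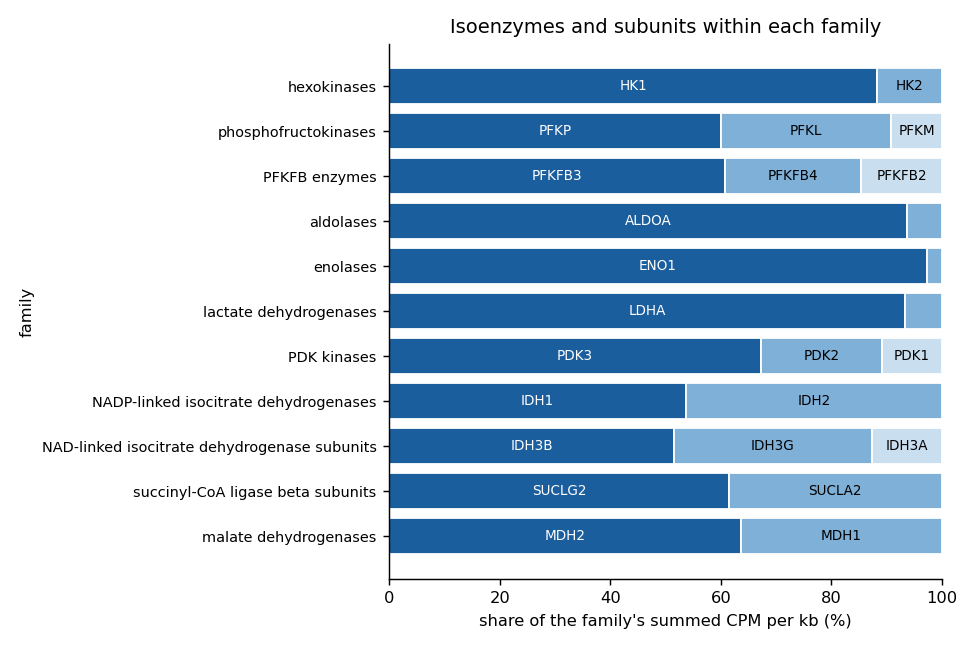
Share of each gene in the CPM per kb summed over the members in its family, in percent, for 11 families with the canonical transcript length. ENO1, ALDOA, LDHA and HK1 each take at least 88.3% of the bar of their family, and the PFKFB, PDK and isocitrate dehydrogenase families are divided more evenly.

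Some of these levels rest on rows that share sequence with others. By symbol, 22 pseudogene rows belonged to 11 of the members. TPI1P1 had 7.35 log2 CPM, which converts to 163 CPM or 32.9% of the 496 CPM of TPI1. The 8 GAPDH pseudogenes summed to 163 CPM, 10.6% of GAPDH, and GAPDHP1 alone had 99.0 CPM. SUCLG2P2 had 21.9% of the CPM of SUCLG2. For LDHA, 5 pseudogenes summed to 2.74% of the CPM of the parent gene, and for PKM and PGK1 the values were 0.422% and 1.08%. The sources used here do not say how reads that match a gene and its copies were counted, so the levels of members with pseudogene rows, above all TPI1, GAPDH and SUCLG2, are uncertain.

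**Figure D4:**
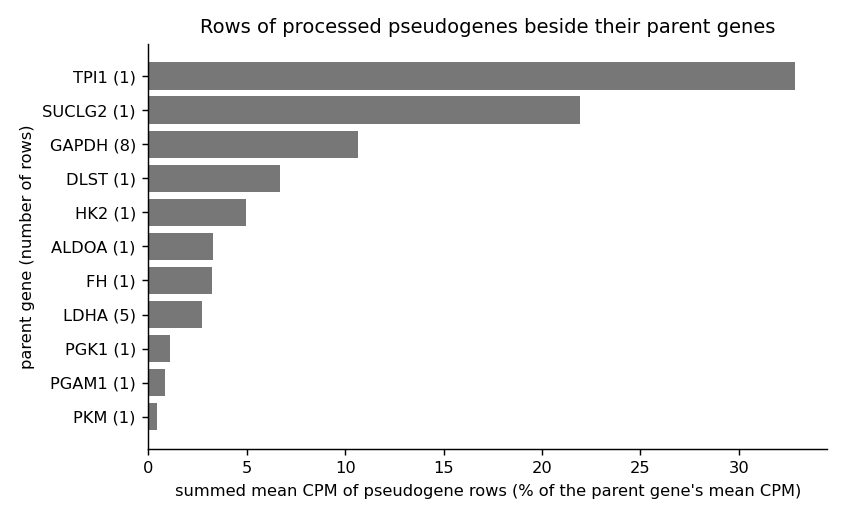
Summed mean CPM of pseudogenes in percent of the mean CPM of the parent gene on the horizontal axis, for the 11 members with pseudogene rows, whose number is in brackets. TPI1 has the largest share, at 32.9%, followed by SUCLG2 at 21.9% and GAPDH at 10.6%.

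ALDOA and LDHB were each largely covered by another annotated gene. ALDOA (chromosome 16, 30064164 to 30072207) encodes the aldolase of muscle and of most tumour cells, and had 5.71 log2 CPM per kb, lower than TPI1 (8.52), PFKP (7.37) and PFKL (6.40) of the neighbouring steps and higher than PFKM (4.67). In GENCODE release 44, 89.8% of the exon bases of its canonical transcript lie in exons of AC093512.2, a gene on the same strand that had 1.95 log2 CPM. For LDHB, 76.5% of the exon bases lie in exons of ENSG00000285854, a gene on the same strand with no row in the table as used here. Whether reads within such overlaps were dropped, shared or counted for both genes is not given in the sources used here. The part of the overlaps in these levels, and in the shares of ALDOA and LDHA in their families, was not tested. On the opposite strand, exons of SAMD14 cover 62.8% of PDK2 and exons of ACSBG1 cover 63.9% of IDH3A. The libraries were stranded, but whether the counting used strand is not stated.

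Other genes of the pathway were examined from a list of 38, of which 25 were in the table. Of these, 17 lay above and 8 below the median of all genes in log2 CPM per kb. The remaining 13 had no row in the table as used here and were not analysed, among them PKLR, PGAM2, PGK2 and LDHC, isoenzymes known from other tissues, and the kinase PDK4. The glucose transporter gene SLC2A1 had 7.22 log2 CPM per kb and SLC2A3 had 1.51. Of the monocarboxylate transporters, SLC16A3, which exports lactate from glycolytic cells, had 7.70 and SLC16A1 had -0.99. The 4 subunits of succinate dehydrogenase had 4.53 for SDHA, 5.99 for SDHB, 5.74 for SDHC and 6.36 for SDHD. TIGAR, a phosphatase that lowers fructose 2,6-bisphosphate, had -1.25 log2 CPM per kb and was above 1.42% of genes. PDP1, a phosphatase that reactivates pyruvate dehydrogenase, had 3.42, and PDP2 had 0.79.

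The labelled cell line was examined through genes known from MDA-MB-231 cells, which were picked for this check with the table in view. The mesenchymal marker VIM had 9.34 log2 CPM per kb and CD44 had 8.13. Of the epithelial genes, the cadherin CDH1 had 1.41, whereas the keratin KRT18 had 7.62. The growth factor receptor EGFR had 5.34. The triple-negative class is named for the hormone receptor genes ESR1 and PGR together with ERBB2. ESR1 and PGR had no row in the table as used here, whereas ERBB2 had 4.31, above 71.6% of genes.

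The members are spread over 17 chromosomes, with 6 of them on chromosome 12. There GAPDH, TPI1 (6867119 to 6870948) and ENO2 (6913745 to 6923698) lie near each other, with 328744 bases between GAPDH and TPI1 and 42796 bases between TPI1 and ENO2. Although close, these genes differed in level, from 10.22 log2 CPM per kb for GAPDH to 8.52 for TPI1 and 5.46 for ENO2.

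Promoter sequence was then described for the members, as glycolytic genes are known targets of hypoxia-inducible factor and of MYC, whose core motifs are ACGTG for the former and CACGTG for the latter. RefSeq windows (GRCh38.p14) from 250 bases before to 50 bases after a gene start were found for 40 of the 42 members, all but OGDH and PFKFB2. Some genes have several starts, so there were 67 windows. Both strands were searched, and the longer motif contains the shorter one. The shorter motif, ACGTG, was in 46.4% of the 28 windows of glycolytic enzymes, in 40.0% of the 5 windows of pyruvate dehydrogenase subunits, in 33.3% of the 18 windows of regulators and in 12.5% of the 16 windows of citric acid cycle enzymes. Over all windows of members the share was 34.3%, compared with 21.4% of all 35116 windows and 25.5% of the windows of genes in the table. Counted by gene, with ACGTG in any of its windows, the order changed and the regulators came first. The share was 71.4% of 7 regulators, 66.7% of 15 glycolytic enzymes, 50.0% of 4 pyruvate dehydrogenase subunits and 14.3% of 14 citric acid cycle enzymes. By gene it was 47.5% of members and 32.6% of genes in the table. CACGTG was in 8 windows of members, or 11.9%, compared with 7.26% of all windows and 9.22% of those of genes in the table. It was in 4 windows of glycolytic enzymes (ALDOA, ALDOC, GAPDH and LDHA), in 3 of regulators (HK2, PDK2 and PFKFB3), in 1 of a pyruvate dehydrogenase subunit (PDHB) and in 0 of the citric acid cycle. TATAA was in 13.4% of the windows of members, compared with 20.4% of all windows and 11.6% of those of genes in the table. A match of letters does not show that a factor binds, and the windows of 1 gene can overlap.

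The stretches with CACGTG before a start are given here, in capitals for the motif. They show the letters around it in genes of higher level (GAPDH, LDHA) and of lower level (HK2, PFKFB3, PDK2). Of the latter, only PDK2 lay below the median of all genes, above 37.5% of genes. HK2 lay above 53.9% and PFKFB3 above 59.3%. Each stretch has 30 bases in the direction of the gene, from RefSeq windows of GRCh38.p14. Those of LDHA and PDHB lie upstream of the annotated gene, that of ALDOA lies in an exon of another ALDOA transcript, and the others lie in introns of transcripts that start earlier.
GAPDH (chr12:6535171-6535200, + strand): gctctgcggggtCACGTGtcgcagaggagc
LDHA, far site (chr11:18394366-18394395, + strand): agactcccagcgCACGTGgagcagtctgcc
LDHA, near site (chr11:18394464-18394493, + strand): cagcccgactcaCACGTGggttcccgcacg
ALDOA (chr16:30064373-30064402, + strand): tggcagggaggcCACGTGatccgagtcccc
PDHB (chr3:58434051-58434080, - strand): acaccgaccaggCACGTGtgcccagcgtgc
HK2, far site (chr2:74834964-74834993, + strand): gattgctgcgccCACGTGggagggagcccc
HK2, near site (chr2:74835009-74835038, + strand): ttccggcgagagCACGTGgagagaatcgtg
PFKFB3 (chr10:6202812-6202841, + strand): caccctcctcccCACGTGgaagggggctgg
PDK2 (chr17:50095210-50095239, + strand): cccgggggaagcCACGTGccggggcggaag

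In LDHA the motif began 185 and 87 bases before the start, in HK2 194 and 149, in GAPDH 81 and in PFKFB3 108. The site occurred in genes at 10.22 and 9.41 log2 CPM per kb (GAPDH and LDHA) and in genes at 2.34 and 3.26 (PDK2 and HK2), and it was not found in the windows of ENO1 and PKM, the 2 members with the highest levels.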

How the data were processed

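MDA-MB-231 Fluc cells were sequenced in 2 cordycepin and 2 DMSO samples as 75 bp paired-end reads. Per the paper's methods, reads were mapped to GRCh38.p13 and counted with rsubread, whereas the submitters' processing notes name TopHat, HTSeq, DESeq, Cufflinks and hg38. The deposited table gives a mean expression as log2 CPM over all libraries, a gene length, and the fold change, F statistic, p-value and adjusted p-value of the authors' own comparison, which were not used. Its filter and normalization are not given in the sources used here. It has 0 columns of values per sample, so depth per library is not known here and cordycepin was not tested against DMSO.

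Levels were divided by the canonical transcript length of GENCODE release 44, found for 13922 of the 13957 genes, of which 11425 had the same start and end as in the table. CPM was computed as 2 to the power of the mean log2 CPM. No filter or pseudocount was applied. All 42 members are named, and the fixed list of 38 other pathway genes and pseudogenes matched by symbol are given by counts and examples. Some genes of that list are not reported here. The members and lists were chosen with earlier results of these data known. Helper functions were tested on simulated data. Python 3.11.15, numpy 2.4.6, pandas 2.3.3 and matplotlib 3.10.9 were used.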

Additional observations from a re-analysis of the deposited data

How the results depend on the processing

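No paired analysis was possible because only a mean over all libraries was used, and for the same reason the planned comparisons of normalization, of a count filter and of single replicates were not run. The planned coding length from RefSeq proteins was replaced by that of GENCODE, chosen after seeing the data, as was leaving out overlapped genes. Of 29 alternative values for 5 differences of medians (log2 scale), 0 changed sign. Regulators against all genes were not among these 5, and their order did change. The regulators had the lower median with the canonical length (2.80 against 3.04 log2 CPM per kb) and the higher one without scaling (4.95 against 4.58 log2 CPM). With the coding length both medians were 4.38 log2 CPM per kb. Regulators less core enzymes (-2.90) became -3.34 with the deposited length, -2.04 with the coding length, -2.22 without scaling, -3.17 without members with pseudogenes, -3.40 without hexokinases and -2.95 without ALDOA and LDHB. Regulators less glycolytic enzymes (-4.44) became -4.75, -3.89, -3.82, -3.67, -4.94 and -4.58 in the same order. Regulators less citric acid cycle enzymes (-2.50) became -2.84, -1.41, -1.49, -2.91 and -3.00, and did not move without ALDOA and LDHB. Glycolytic less citric acid cycle enzymes (1.95) became 1.91, 2.48, 2.33 and 0.76 in the first 4 settings, and 2.08 without ALDOA and LDHB. Leaving out members with pseudogenes removes GAPDH, LDHA, PKM and TPI1 by construction. All members less all genes (2.51) became 2.08, 1.88, 2.11 and 2.33 in the first 4 settings, 1.85 against genes above the lowest 25% of expression and 2.39 against protein-coding genes. Within families, 5 of 30 orders of neighbours were reversed. With the coding length these were PFKFB4 to PFKFB2 (-0.14), PDK2 to PDK1 (-0.95) and IDH3G to IDH3A (-0.21), and with the deposited length PDK3 to PDK2 (-0.64) and IDH1 to IDH2 (-0.75). Each of these settings changes only the length by which a level is divided, so the reversals are set by the lengths used. Which length suits each gene was not tested. Depth and replicate error are unknown for every level.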
